A study of Homo sapiens with 47 samples.

Results

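The miR-99b, let-7e and miR-125a cluster is a set of 3 microRNA (miRNA) hairpins on chromosome 19 that each give a 5p and a 3p mature arm. Its 6 mature arms were taken by name from a small RNA sequencing table of 1006 miRNA entries, and all 6 were present. They were measured in PC-3 cells, a human prostate cancer line derived from a bone metastasis, and in 22Rv1 cells, a human prostate cancer line with androgen receptor. Both lines grew in RPMI-1640 medium with serum. Hypoxia lasted 24 h at 5, 2, 1, 0.5, 0.2 or 0% O2 in a chamber, and each of these 6 levels had its own normoxia controls in 95% air. PC-3 gave 12 hypoxia and 12 normoxia libraries, 2 to a group, and 22Rv1 gave 12 hypoxia and 11 normoxia libraries, since only 1 normoxia library of its 0.2% level was used here. Each line stands for a single tumour.

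A miRNA hairpin is cut by Drosha and Dicer into a short duplex, and one arm of it is usually loaded into an Argonaute protein while the other is mostly degraded. The loaded arm pairs with target mRNAs mainly through its seed, bases 2 to 8, so miRNAs that share a seed are expected to share many targets. The 3 hairpins of the cluster belong to 3 old families: let-7, which represses growth and stem cell genes, miR-125, the relative of lin-4 of Caenorhabditis elegans, and miR-99/100, whose known targets include mTOR. Paralogous clusters elsewhere in the human genome carry the same 3 families, one on chromosome 21 with miR-99a, let-7c and miR-125b-2 and the other on chromosome 11 with miR-100, let-7a-2 and miR-125b-1.

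The 6 mature sequences are shown because the comparisons below turn on which arm and which seed family is meant. They are RefSeq's, from GRCh38.p14, written 5′ to 3′ with the seed in capitals, and the species prefix hsa (human) is left off in the rest of the text.
hsa-miR-99b-5p: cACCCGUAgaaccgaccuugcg
hsa-miR-99b-3p: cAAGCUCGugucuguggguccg
hsa-let-7e-5p: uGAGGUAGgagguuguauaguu
hsa-let-7e-3p: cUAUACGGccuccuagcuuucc
hsa-miR-125a-5p: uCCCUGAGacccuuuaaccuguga
hsa-miR-125a-3p: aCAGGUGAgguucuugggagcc

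Each 5p arm has close relatives in the table, and the nearest ones are printed for comparison in the same way.
hsa-miR-99a-5p: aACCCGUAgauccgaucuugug
hsa-miR-100-5p: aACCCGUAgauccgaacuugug
hsa-let-7a-5p: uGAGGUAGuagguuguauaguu
hsa-miR-125b-5p: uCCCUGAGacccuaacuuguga
Counted from the 5′ end, with the cluster member's base first, let-7e-5p differed from let-7a-5p by the single substitution G9U, just after the seed. miR-99b-5p differed from miR-100-5p by C1A, A11U, C16A and C21U. The seed of miR-99b-5p was shared with 2 other entries (miR-99a-5p and miR-100-5p), that of let-7e-5p with 8 (the other let-7 5p arms and miR-98-5p) and that of miR-125a-5p with 1 (miR-125b-5p). Among the 3p arms, miR-99b-3p shared its seed with miR-99a-3p, and the seeds of let-7e-3p and miR-125a-3p were found in no other of the 868 entries that had a RefSeq sequence. The table had no member with counts identical to those of another entry, but reads that fit more than 1 relative may have been split in the authors' counting, so values of let-7e-5p in particular are uncertain.

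The miR-125a hairpin is shown whole, with both mature arms in capitals, because the ratio of its arms is tested.
hsa-mir-125a: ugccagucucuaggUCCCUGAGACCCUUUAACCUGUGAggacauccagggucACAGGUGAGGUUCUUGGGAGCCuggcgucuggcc
The hairpins lie on the plus strand of GRCh38 at chr19:51692612-51692681 for miR-99b, chr19:51692786-51692864 for let-7e and chr19:51693254-51693339 for miR-125a. Gaps of 104 and 389 bases separate them, and the whole cluster spans 728 bases. In GENCODE 29 they overlapped an intron of the protein-coding gene SPACA6 on the same strand, and no SPACA6 exon. On the opposite strand the region is covered by the long noncoding RNA SPACA6P-AS, whose exon at 51692634 to 51693456 overlapped all 3 hairpins.

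Library totals ran from 1742290 to 4327382 counts in PC-3 and from 960421 to 3181344 counts in 22Rv1. Levels are given as CPM, counts scaled to a common total after correction by TMM (a trimmed mean of log ratios between libraries), and plus-minus values are the SD between libraries. The labels speak of duplicates but not of separate cultures, and the spread behind each p-value, which is that between these libraries, may be technical. Some libraries stood apart from the others of their line on the first principal component. In PC-3 these were the first-replicate hypoxia and normoxia libraries of the 5% level, in which the 6 smooth muscle or stromal markers summed to 1406 and 1478 CPM, against 22.7 to 46.0 CPM in the other 22 libraries, nearly all of it miR-143-3p. In 22Rv1 they were the same pair at 5% O2, the first hypoxia library at 0.5% and the second at 0.2%, with sums of 54.3 to 533 CPM for those markers against 115 to 197 CPM in the other 19. Results are given with and without these libraries where they change. All 6 epithelial markers reached a mean of 5 CPM in both conditions of PC-3 and in hypoxic 22Rv1, and 5 of 6 did in normoxic 22Rv1, and of the blood markers miR-223-3p was not in the table. miR-210-3p, the best known miRNA induced by hypoxia, was higher under hypoxia in 12 of 12 PC-3 pairs and 11 of 11 22Rv1 pairs.

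In every library the 5p arms carried nearly all of the cluster's reads. The mature arms are 22 to 24 bases long, so their CPM were compared without division by length, but adapters are known to join some small RNAs better than others, and the order is one of reads. miR-125a-5p was the most abundant member. Its level ran from 16562 to 21224 CPM in hypoxic PC-3 (median 18669) and from 15140 to 19856 CPM in normoxic PC-3 (median 17998), rank 15 of 1006 entries by mean. In 22Rv1 it ran from 6030 to 9658 CPM under hypoxia (median 8094) and from 6455 to 8481 CPM in normoxia (median 6865), rank 25. No PC-3 library was as low as any 22Rv1 library.

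miR-99b-5p and let-7e-5p followed, and their ranges overlapped in both lines. miR-99b-5p had 4638 to 8047 CPM in hypoxic PC-3 (median 5849) and 4321 to 6722 CPM in normoxic PC-3 (median 5571), against 1914 to 3638 CPM in hypoxic 22Rv1 (median 2478) and 1868 to 4662 CPM in normoxic 22Rv1 (median 2067). let-7e-5p had 4090 to 5254 CPM in hypoxic PC-3 (median 4507) and 3553 to 4839 CPM in normoxic PC-3 (median 4232), against 1796 to 2916 CPM in hypoxic 22Rv1 (median 2393) and 1969 to 3330 CPM in normoxic 22Rv1 (median 2270). They ranked 40 and 44 in PC-3 and 44 and 46 in 22Rv1.

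The 3p arms were far lower. miR-99b-3p led them with 88.1 to 139 CPM over the PC-3 libraries and 30.4 to 61.5 CPM over the 22Rv1 libraries. miR-125a-3p came next with 38.9 to 85.2 CPM in PC-3 and 17.7 to 44.8 CPM in 22Rv1, and its range overlapped that of miR-99b-3p in 22Rv1 only. let-7e-3p was the lowest, with 33.0 to 54.1 CPM in PC-3 and 6.33 to 19.6 CPM in 22Rv1, and it overlapped miR-125a-3p in the normoxia libraries of both lines. The lowest 3p counts were 63 reads in a PC-3 library and 5 reads in a 22Rv1 library, both of let-7e-3p.

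**Figure D1:**
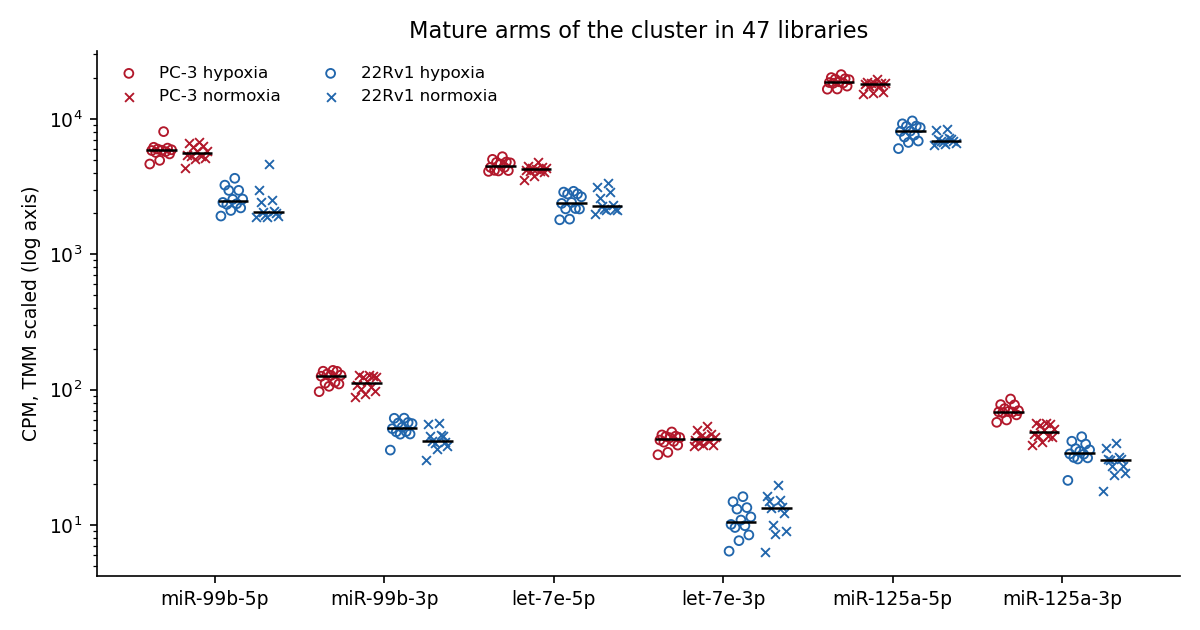
TMM-scaled CPM (log axis) of the 6 mature arms, with 1 point per library and black lines at the medians, for PC-3 hypoxia (12), PC-3 normoxia (12), 22Rv1 hypoxia (12) and 22Rv1 normoxia (11). The 5p arms lie 1 or more orders of magnitude above the 3p arms, PC-3 medians lie above those of 22Rv1 for every arm, and miR-125a-3p is the arm for which hypoxia and normoxia separate in PC-3.

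In PC-3, low O2 went with more miR-125a-3p, the minor arm of its hairpin. The other 5 arms had no called change in the main fit, which does not pair the libraries. With the pair as a block, miR-125a-5p and let-7e-5p were also called, as given below. miR-125a-3p had 57.3 to 85.2 CPM in the 12 hypoxia libraries (median 68.7) and 38.9 to 56.8 CPM in the 12 normoxia libraries (median 48.6), from 69 to 182 reads a library. With TMM scaling every hypoxia library was above every normoxia library, though narrowly (57.3 against 56.8 CPM). This separation depends on the scaling. With TMM it was found for 3 of the 463 miRNAs tested in PC-3 (0.648%). The rest were miR-210-3p and miR-181d-5p, the last of which was named after its values were seen. The mean of the 6 effects was a 1.43-fold rise (log2 0.52, SE 0.078, adjusted p = 6.12e-05 by edgeR's quasi-likelihood test with Benjamini-Hochberg adjustment over all 463), and hypoxia was higher in 12 of 12 pairs. In these bulk samples a change in the share of cells that make an RNA and a change in the amount per cell cannot be told apart.

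In the main fit 1 of the 6 members was called in PC-3, where 11.0% of all tested miRNAs were called (51 of 463, with 27 higher and 24 lower). The split depended on scaling, with 22 higher and 44 lower when libraries were scaled by their totals alone. The median effect over the 6 members was log2 0.11, and over all tested miRNAs it was log2 -0.0044. Without the 5% pair that stood apart, the effect on miR-125a-3p was log2 0.51 (adjusted p = 4.21e-04 by the same test), in a fit that called 9.17% of all tested miRNAs. The part of the stromal marker in this effect was not tested. miR-125a-3p was called by each of the 8 other settings tried and each of the 24 omissions of 1 library, with log2 values of 0.48 to 0.57.

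The other arm of the same hairpin, miR-125a-5p, moved little in PC-3. Its mean was 18749 ± 1412 CPM under hypoxia and 17612 ± 1433 CPM in normoxia (SD, n = 12 each), a log2 difference of 0.10 (95% interval -0.0014 to 0.20, adjusted p = 0.208 by edgeR). let-7e-5p averaged 4541 ± 384 CPM under hypoxia and 4204 ± 324 CPM in normoxia (n = 12 each), log2 0.12 (interval 0.012 to 0.23, adjusted p = 0.150 by edgeR). For both arms the ranges of the conditions overlapped. The unadjusted p was 0.0530 for miR-125a-5p and 0.0307 for let-7e-5p (edgeR). Hypoxia was higher in 11 of 12 pairs for miR-125a-5p and in 9 of 12 for let-7e-5p.

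Same-numbered PC-3 hypoxia and normoxia libraries deviated together, and taking the pair as a block narrowed the errors. With the replicate block both arms were called, miR-125a-5p at log2 0.10 (SE 0.031, adjusted p = 0.0209 by edgeR) and let-7e-5p at log2 0.12 (SE 0.035, adjusted p = 0.0170 by edgeR). That made 3 of 6 members, in a fit that called 23.5% of all tested miRNAs (109 of 463). Without the block the intervals reached at most a 1.15-fold rise of miR-125a-5p and a 1.17-fold rise of let-7e-5p.

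The remaining arms were not called with or without the block. miR-99b-3p had 96.5 to 139 CPM under hypoxia (median 126) and 88.1 to 129 CPM in normoxia (median 112), with log2 0.14 (adjusted p = 0.242 by edgeR, and 0.0514 with the block), and hypoxia was higher in 10 of 12 pairs. miR-99b-5p differed by log2 0.06 (interval -0.090 to 0.21) and was higher under hypoxia in 7 of 12 pairs. let-7e-3p differed by log2 -0.05 (interval -0.22 to 0.12) and was higher under hypoxia in 6 of 12 pairs. In fold terms the interval of miR-99b-5p ran from 0.939 to 1.15 and that of let-7e-3p from 0.859 to 1.08.

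By O2 level, from the mildest to the most severe, the effect on miR-125a-3p in PC-3 was log2 0.25 at 5%, 0.58 at 2%, 0.48 at 1%, 0.55 at 0.5%, 0.61 at 0.2% and 0.62 at 0% O2. The hypoxia libraries of the 5% level had 68.4 and 65.0 CPM against 55.7 and 56.8 CPM in their controls. Those of the 0% level had 77.4 and 68.2 CPM against 41.1 and 55.0 CPM. With 2 libraries a group it was called at no single level, and its smallest adjusted p was 0.0916, at 0% O2 (edgeR). At 5, 2, 1, 0.5, 0.2 and 0% O2, 0.0, 0.648, 0.648, 0.864, 1.51 and 2.81% of all tested miRNAs were called. The effects on the other 5 arms at single levels ran from log2 -0.24 (let-7e-3p at 0.2%) to 0.34 (miR-99b-3p at 2%), and none of them was called. With the replicate block miR-125a-3p was called at 0.2% (adjusted p = 0.0360) and at 0% O2 (adjusted p = 0.0209), where 6.7% and 7.99% of all tested miRNAs were called. Leaving out the first hypoxia library of the 1% level gave an adjusted p of 0.0493 at 0% O2 without the block, in a fit that called 3.46% of all tested miRNAs there. The 5% effect was the smallest of the 6, but no trend over the levels was found (log2 0.058 per step toward lower O2, SE 0.046, adjusted p = 0.995 by edgeR). None of the 6 members had a called trend, and 0.216% of all tested miRNAs had one.

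**Figure D2:**
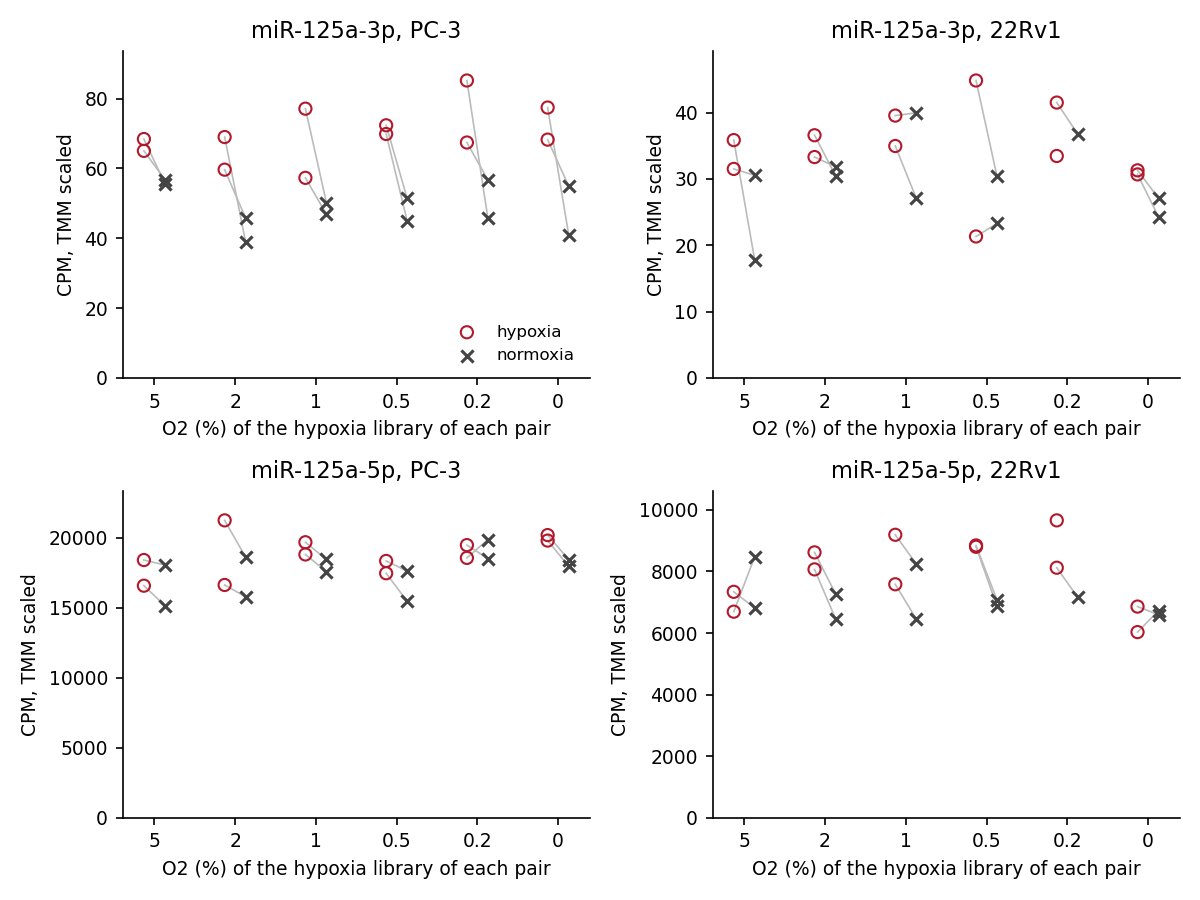
TMM-scaled CPM of miR-125a-3p (top) and miR-125a-5p (bottom) in PC-3 (left) and 22Rv1 (right) by the O2 level of each pair, as circles for hypoxia and crosses for its normoxia control, with grey lines joining libraries of the same replicate number. In PC-3 all 12 lines of miR-125a-3p run down toward normoxia, with hypoxia at 57.3 to 85.2 CPM and normoxia at 38.9 to 56.8 CPM, while the 5p arm overlaps between the conditions.

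In 22Rv1 none of the 6 members was called for the mean effect, where 13.6% of all tested miRNAs were (75 of 552, with 42 higher and 33 lower, or 20 higher and 26 lower with library totals alone). miR-99b-3p and miR-125a-5p had an unadjusted p under 0.05 (0.0218 and 0.0443 by edgeR). miR-99b-3p had 35.7 to 61.5 CPM under hypoxia (median 52.1) and 30.4 to 56.3 CPM in normoxia (median 41.6). Its mean effect was log2 0.26 (SE 0.11, adjusted p = 0.114 by edgeR), with hypoxia higher in 9 of 11 pairs. miR-125a-5p averaged 7984 ± 1104 CPM under hypoxia (n = 12) and 7104 ± 679 CPM in normoxia (n = 11), log2 0.15 (SE 0.070, adjusted p = 0.174 by edgeR), with hypoxia higher in 9 of 11 pairs.

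miR-125a-3p, the arm called in PC-3, had 21.3 to 44.8 CPM in hypoxic 22Rv1 (median 34.2) and 17.7 to 40.0 CPM in normoxic 22Rv1 (median 30.4), with 14 to 156 reads a library. The groups overlapped, and the effect was log2 0.20 (interval -0.044 to 0.44, adjusted p = 0.288 by edgeR), with hypoxia higher in 9 of 11 pairs. The interval leaves room for a rise of up to 1.36-fold. The largest gap, 35.9 against 17.7 CPM, was in the first pair of the 5% level, where the normoxia library had 14 reads. let-7e-5p did not separate the groups (log2 -0.03, interval -0.20 to 0.15), nor did let-7e-3p (log2 -0.28, interval -0.64 to 0.080), whose counts in 22Rv1 were 5 to 61 reads a library.

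At single O2 levels none of the 6 members was called in 22Rv1, where 0.0, 0.362, 0.725, 3.08, 0.906 and 4.71% of all tested miRNAs were called at 5, 2, 1, 0.5, 0.2 and 0% O2. The effect on miR-125a-3p was positive at each of the 6 levels, at log2 0.06 to 0.27. That on miR-99b-3p was also positive at each, at log2 0.07 to 0.60. The 5p arms changed sign between levels, miR-125a-5p at log2 -0.20 to 0.35, miR-99b-5p at log2 -0.32 to 0.79 and let-7e-5p at log2 -0.36 to 0.36. let-7e-3p ran from log2 -0.86 at 0.5% to 0.09 at 1% O2. At 0.5% it had 6.40 and 9.57 CPM (12 and 19 reads) under hypoxia and 13.5 and 15.1 CPM (48 and 58 reads) in normoxia (adjusted p = 0.262 by edgeR). That was the single-level effect of greatest size among the 6 members, from few reads and with a hypoxia library that stood apart. No member had a called trend over the levels, and 0.181% of all tested miRNAs had one.

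The 22Rv1 values of miR-99b-5p turned on a few libraries. The first normoxia library of the 5% level had 4662 CPM and its hypoxia partner 3237 CPM, and the first hypoxia library of the 0.5% level had 3638 CPM, the 3 highest values of the line and all among those that stood apart. With all libraries the mean effect was log2 0.14 (SE 0.12, adjusted p = 0.492 by edgeR). Without the 5% normoxia library it was log2 0.26 (adjusted p = 0.0315), in a fit that called 15.6% of all tested miRNAs. At 0.5% O2 alone the effect was log2 0.79 (adjusted p = 0.144), from 3638 and 2960 CPM under hypoxia against 1906 and 1889 CPM in normoxia. Without either 5% normoxia library the same difference was called (adjusted p = 0.0202 without the first and 0.0171 without the second), where 4.36% and 4% of all tested miRNAs were called.

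Without the 4 libraries that stood apart, 3 of the 6 members were called in 22Rv1, miR-99b-5p (log2 0.23, adjusted p = 0.0111), miR-99b-3p (log2 0.27, adjusted p = 0.0358) and miR-125a-5p (log2 0.16, adjusted p = 0.0358, all by edgeR), each higher under hypoxia. That setting was chosen after the data were seen, and it raised the share of all tested miRNAs called to 27.7% (150 of 541). miR-99b-5p then averaged 2493 ± 302 CPM under hypoxia (n = 9) and 2176 ± 366 CPM in normoxia (n = 10). miR-125a-3p had log2 0.24 (adjusted p = 0.0822) in the same fit. At 0.5% O2 miR-99b-5p was called there too (log2 0.55, adjusted p = 0.0422), where 4.99% of all tested miRNAs were.

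The lines were then compared for their response. The mean effect on miR-125a-3p was log2 0.30 larger in PC-3 than in 22Rv1 (SE 0.14, interval 0.0073 to 0.59), with an unadjusted p of 0.0448 and an adjusted p of 0.307 by edgeR. So the response of this arm was called in 1 line and not in the other, but the difference between lines was not. None of the 6 members was called for this difference, where 2.94% of all tested miRNAs were (18 of 613). At single levels the adjusted p-values of the 6 members ran from 0.456 to 1.00, in fits that called 0.0% of all tested miRNAs at 5 to 0.2% O2 and 1.31% at 0% O2. With the replicate block or without the libraries that stood apart none was called.

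**Figure D3:**
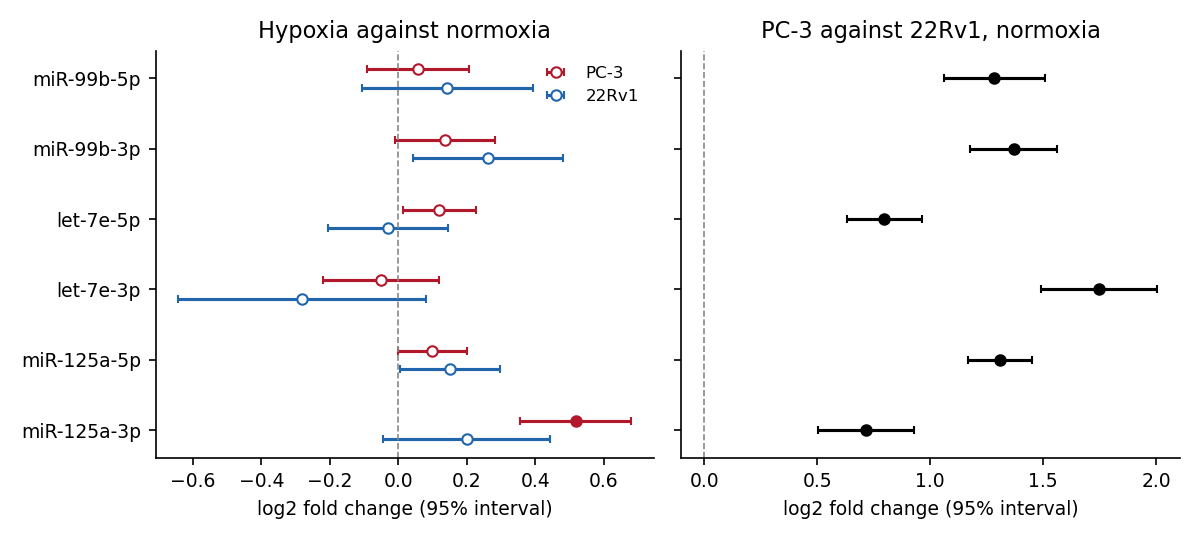
Left, mean hypoxia effect on each arm in PC-3 and 22Rv1 (log2 fold change, hypoxia over normoxia). Right, normoxic PC-3 over normoxic 22Rv1. Points are estimates of the fits without the replicate block, bars are 95% intervals, and filled points have an adjusted p below 0.05. Of the 12 hypoxia effects 1 is filled, miR-125a-3p in PC-3 at log2 0.52, while all 6 line differences are filled, at log2 0.72 to 1.75.

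Because miR-125a-3p and miR-125a-5p come from 1 hairpin, the ratio of the arms was tested directly. It is free of library scaling. In PC-3 the 3p arm made up 0.304 to 0.436% of the hairpin's counts under hypoxia (median 0.380%) and 0.209 to 0.374% in normoxia (median 0.287%). It was higher under hypoxia in 12 of 12 pairs, although the ranges overlapped. The log2 ratio of 3p to 5p rose by 0.42 (SE 0.081, interval 0.25 to 0.58, adjusted p = 1.81e-04 by limma over 120 hairpins). Of the 3 hairpins of the cluster 1 was called, in a fit that called 13.3% of all hairpins (16 of 120, with 7 higher and 9 lower), and it was called in each of the 6 other settings and 24 omissions.

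By level the ratio of the miR-125a arms in PC-3 differed by log2 0.17 at 5%, 0.47 at 2%, 0.36 at 1%, 0.44 at 0.5%, 0.59 at 0.2% and 0.48 at 0% O2. None of these was called by limma, the smallest adjusted p being 0.187, where 0.0, 1.67, 2.5, 0.0, 0.0 and 0.833% of all hairpins were called in that order of levels. In the let-7e hairpin the PC-3 ratio went the other way, with a 3p share of 0.921 ± 0.114% under hypoxia and 1.03 ± 0.101% in normoxia (n = 12 each). The difference, log2 -0.17 (interval -0.34 to 0.0031, adjusted p = 0.232 by limma), was not called, with hypoxia lower in 10 of 12 pairs. In the miR-99b hairpin the 3p share was 2.06 ± 0.310% under hypoxia and 1.96 ± 0.360% in normoxia, log2 0.08 (adjusted p = 0.582 by limma). At 2% O2 its shares were 2.23 and 2.51% under hypoxia and 1.53 and 1.88% in normoxia, log2 0.49 (adjusted p = 0.116 by limma). With the replicate block this single level was called (adjusted p = 0.0286 by limma), where 6.67% of all hairpins were (8 of 120).

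In 22Rv1 the miR-125a ratio did not separate the groups. The 3p share was 0.242 to 0.533% under hypoxia (median 0.449%) and 0.209 to 0.511% in normoxia (median 0.428%). The log2 difference was 0.07 (interval -0.25 to 0.38, adjusted p = 0.870 by limma), and hypoxia was higher in 5 of 11 pairs. None of the 3 hairpins was called, where 7.91% of all hairpins were (11 of 139). The largest single-level ratio was that of let-7e at 0.5% O2, with 3p shares of 0.229 and 0.327% under hypoxia and 0.590 and 0.705% in normoxia. It differed by log2 -1.21 and was not called (adjusted p = 0.201 by limma, unadjusted 0.0188), where 0.719% of all hairpins were called. The lowest miR-125a and miR-99b shares of the line, 0.209% and 0.648%, were in the first normoxia library of the 5% level. The difference between lines in the response of the miR-125a ratio was log2 0.35 (interval 0.0047 to 0.69), with an unadjusted p of 0.0472 and an adjusted p of 0.346 by limma, where 1.27% of all hairpins were called.

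**Figure D4:**
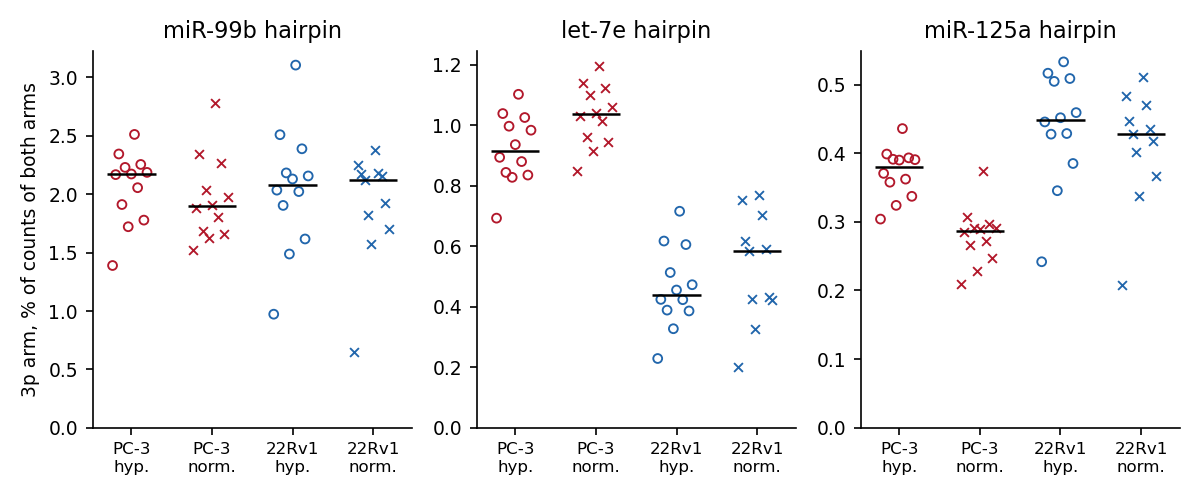
Share of the 3p arm in the counts of both arms (%), by hairpin, with 1 point per library and black lines at the medians, for PC-3 hypoxia and normoxia and 22Rv1 hypoxia and normoxia. For miR-125a the PC-3 hypoxia median is 0.380% and the PC-3 normoxia median 0.287%, and the let-7e share is higher in PC-3 than in 22Rv1.

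The larger difference was between the lines. In normoxia all 6 members were higher in PC-3 than in 22Rv1, in a comparison that called 86.0% of all tested miRNAs (527 of 613), 39.6% of them higher in PC-3 (243) and 46.3% lower (284). let-7e-3p differed most, at 43.7 ± 4.83 CPM in PC-3 and 12.7 ± 3.91 CPM in 22Rv1 (n = 12 and 11), 3.36-fold (log2 1.75, SE 0.13). miR-99b-3p was 2.58-fold higher (log2 1.37), miR-125a-5p 2.48-fold (log2 1.31) and miR-99b-5p 2.43-fold (log2 1.28). let-7e-5p was 1.74-fold higher (log2 0.80) and miR-125a-3p 1.64-fold (log2 0.72). The largest adjusted p of the 6 was 8.19e-08 (edgeR).

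The normoxia ranges of the lines did not overlap for 4 arms, miR-99b-3p, let-7e-5p, let-7e-3p and miR-125a-5p. The ranges did not overlap for 57.7% of all tested miRNAs (354 of 613). For miR-99b-5p and miR-125a-3p, 11 of the 12 PC-3 libraries were above every 22Rv1 library. The median over the 6 members was log2 1.30, against log2 -0.15 over all tested miRNAs. With library totals alone the median of all miRNAs moved to log2 -0.60 (180 higher and 352 lower), and 5 of the 6 members were still called, with miR-125a-3p at log2 0.24 (adjusted p = 0.0688 by edgeR). Relative to the median of all miRNAs all 6 arms were higher in PC-3 under both scalings.

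The arms of a hairpin did not differ between the lines by the same amount. The let-7e ratio of 3p to 5p was log2 1.01 higher in PC-3 (SE 0.15, adjusted p = 1.90e-06 by limma over 157 hairpins), with normoxia 3p shares of 1.03 ± 0.101% in PC-3 and 0.530 ± 0.183% in 22Rv1. The miR-125a ratio went the other way, log2 -0.57 (SE 0.12, adjusted p = 2.23e-04 by limma), with shares of 0.280 ± 0.0419% in PC-3 and 0.410 ± 0.0831% in 22Rv1. For miR-99b the shares were 1.96 ± 0.360% and 1.90 ± 0.483% in PC-3 and 22Rv1, log2 0.08 (interval -0.24 to 0.39, adjusted p = 0.669 by limma). So 2 of the 3 hairpins were called, in opposite directions, in a fit that called 62.4% of all hairpins (98 of 157, with 63 higher and 35 lower).

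The line difference of the cluster can be set beside its paralogues. Of the chromosome 11 members, miR-100-5p and miR-125b-1-3p were nearly lacking in normoxic 22Rv1. The let-7a-2 hairpin cannot be judged from its 5p arm, let-7a-5p, which also comes from chromosomes 9 and 22, and its 3p arm is not given here. miR-100-5p had 26146 to 40849 CPM in normoxic PC-3, against 0 to 1.11 CPM in normoxic 22Rv1, where it had at most 4 reads a library. miR-125b-1-3p had 1073 to 1420 CPM in normoxic PC-3 and no read in any of the 11 normoxic 22Rv1 libraries. miR-125b-5p, which can come from chromosome 11 or 21, had 4281 to 5904 CPM in normoxic PC-3 and 11.0 to 39.3 CPM in normoxic 22Rv1. Of the chromosome 21 members, miR-99a-5p had like medians, at 34.8 to 57.7 CPM in normoxic PC-3 (median 40.4) and 35.3 to 89.9 CPM in normoxic 22Rv1 (median 38.9). let-7c-5p was lower in PC-3, at 252 ± 29.9 CPM against 363 ± 80.1 CPM in 22Rv1 (n = 12 and 11). The arms miR-99a-3p, let-7c-3p and miR-125b-2-3p of that cluster are not given here. Of the 11 listed paralogous arms 9 were tested over both lines, and 5 were called higher and 2 lower in PC-3 by edgeR. One 22Rv1 library, the first hypoxia library at 5% O2, had 41.3 CPM of miR-100-5p (38 reads), while the other 22Rv1 hypoxia libraries had at most 10 reads, and it was among those that stood apart.

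For the mean hypoxia effect 0 of 9 tested paralogues were called in PC-3, where 11.0% of all tested miRNAs were, and 0 of 5 in 22Rv1, where 13.6% were, counts too small to tell from those shares. Their median effect was log2 0.06 in PC-3 and log2 0.12 in 22Rv1. Among the 8 other 5p arms with the let-7 seed, let-7i-5p rose in PC-3 (log2 0.16, adjusted p = 0.0262) and let-7d-5p fell in 22Rv1 (log2 -0.25, adjusted p = 0.0175, both by edgeR). The lists of paralogues and of let-7 arms share let-7a-5p and let-7c-5p.

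These levels set how much of each seed family came from the cluster. In PC-3 miR-99b-5p gave 13.8 ± 0.679% of the counts with its seed (n = 24), since miR-100-5p gave most of the rest, and in 22Rv1 it gave 97.7 ± 0.592% (n = 23). miR-125a-5p gave 75.9 to 81.5% of its family in PC-3 (median 77.8%) and 99.5 to 99.8% in 22Rv1 (median 99.7%). let-7e-5p was a small part of the let-7 seed in both lines, 2.70 to 3.23% in PC-3 (median 2.93%) and 1.59 to 1.96% in 22Rv1 (median 1.71%). Hypoxia and normoxia overlapped in each of these shares. The summed level of the miR-99 family was 34780 to 54905 CPM in hypoxic PC-3 and 30502 to 47505 CPM in normoxic PC-3, against 1973 to 3721 CPM in hypoxic 22Rv1 and 1904 to 4752 CPM in normoxic 22Rv1. So the line with the higher miR-99b-5p was also the line in which it was the smaller part of its family.

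**Figure D5:**
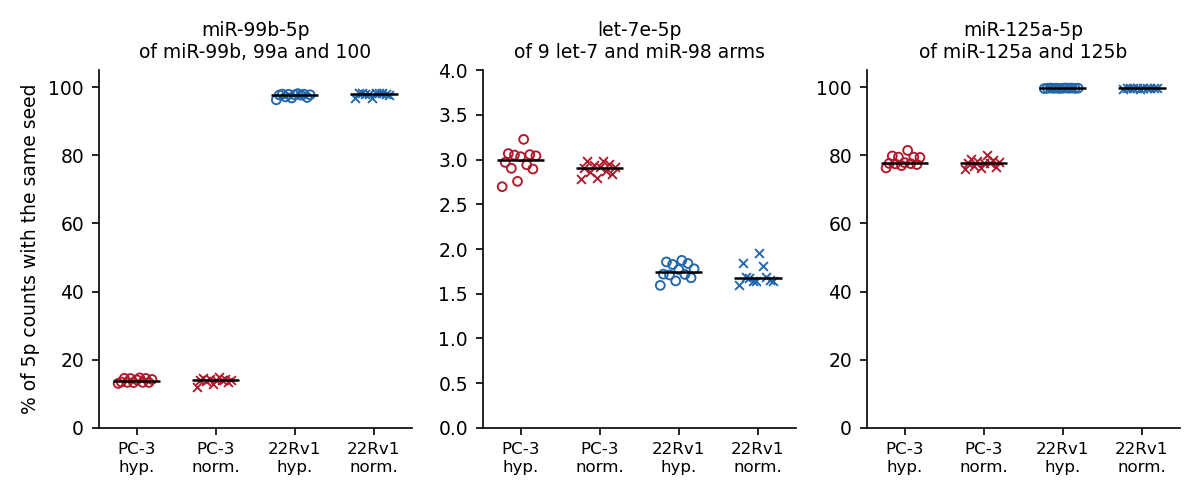
Share of each 5p member in the counts of all measured 5p arms with the same seed (%), with 1 point per library and black lines at the medians, for PC-3 hypoxia and normoxia and 22Rv1 hypoxia and normoxia (the let-7 panel has its own scale). miR-99b-5p is a mean of 13.8% of its family in PC-3 and 97.7% in 22Rv1, while the medians are 2.93% in PC-3 and 1.71% in 22Rv1 for let-7e-5p and 77.8% in PC-3 and 99.7% in 22Rv1 for miR-125a-5p.

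The miRNAs whose ratio to a member varied least over the libraries of a line were mostly outside the cluster. The measure is the SD of the log2 ratio over libraries, among miRNAs with a mean of at least 100 CPM, and it is a description, since all values of a library share its depth and preparation. In PC-3 (24 libraries, 198 candidates) the miRNA most like miR-99b-5p was miR-100-5p (SD 0.083), then miR-191-5p (0.135) and miR-26b-5p (0.149), with a median SD of 0.232 over all candidates. For let-7e-5p they were let-7a-5p (SD 0.057), miR-98-5p (0.078) and let-7g-5p (0.080), with a median of 0.195. For miR-125a-5p they were miR-26a-5p (SD 0.089), miR-22-3p (0.099) and miR-151b (0.109), with a median of 0.190. In PC-3 the first partner of miR-99b-5p and all 3 of let-7e-5p carried the seed of the member and came from other chromosomes. The other 2 partners of miR-99b-5p did not share its seed. Reads split between near-identical relatives may enter these ratios, which was not tested.

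The other members of the cluster ranked lower on the same measure. In PC-3 the ratio of let-7e-5p to miR-99b-5p had an SD of 0.181, rank 22 among the candidates of miR-99b-5p, and miR-125a-5p had an SD of 0.187, rank 29. Among the candidates of let-7e-5p, miR-99b-5p ranked 77 and miR-125a-5p 44. Among those of miR-125a-5p, miR-99b-5p ranked 93 and let-7e-5p 42. miR-99b-3p, from the same hairpin as miR-99b-5p, had an SD of 0.246, rank 123 among the candidates of miR-99b-5p. It had 153 to 388 reads a PC-3 library, against 7978 to 24341 of miR-99b-5p, and the part of its few reads in this SD was not tested. In 22Rv1 (23 libraries, 173 candidates) the miRNAs most like let-7e-5p were miR-98-5p (SD 0.0881), let-7a-5p (0.0882) and let-7g-5p (0.120), those most like miR-99b-5p were miR-191-5p (0.130), miR-183-5p (0.133) and let-7f-5p (0.157), and those most like miR-125a-5p were miR-484 (0.151), miR-374a-5p (0.170) and miR-548k (0.170). There let-7e-5p ranked 16 for miR-99b-5p (SD 0.218) and miR-125a-5p ranked 58 (SD 0.334). For let-7e-5p in 22Rv1, miR-99b-5p ranked 17 and miR-125a-5p 53. For miR-125a-5p in 22Rv1, miR-99b-5p ranked 123 and let-7e-5p 68.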

How the data were processed

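Small RNA libraries (TruSeq Small RNA kit on miRNeasy total RNA, per the labels' protocols) were made from PC-3 and 22Rv1 cells. The submitters' processing notes name FastQC and the build hg19, and the sources used here do not name an aligner or counter. The authors deposited whole-number read counts per mature miRNA and a CPM table. The deposited CPM were the counts times 1 constant per library (relative difference at most 2.5e-09, implied factors 1.01 to 1.95), and served only as an alternative scaling.

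Counts were tested with edgeR 4.0.16 in R 4.3.3: at least 5 CPM in at least 2 libraries (463 miRNAs in PC-3, 552 in 22Rv1, 613 over both), TMM scaling, 1 mean per group and robust quasi-likelihood tests, two-sided. A call is a Benjamini-Hochberg adjusted p under 0.05 over all tested miRNAs. The biological coefficient of variation was 15.3% (PC-3) and 17.7% (22Rv1). The single 22Rv1 control library of the 0.2% level is taken to vary as the other groups do. Contrasts were hypoxia against its own controls at each level, the mean of the 6 effects, their trend, their difference between lines, PC-3 against 22Rv1 in normoxia and differences among control sets. Each level has its own controls, so no control library enters 2 levels. Arm ratios, log2 of 3p over 5p with 0.5 added to each count, were fitted with limma 3.58.1. Intervals are 95% t intervals of these fits and cover the spread between libraries. DESeq2 1.42.0, other scalings and filters, a replicate block and omission of each library were alternatives. The fits were tested on simulated independent counts with a common dispersion. The simulation held no pairing and no libraries that stood apart, so it says nothing about either.

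In PC-3 the deviations of same-numbered hypoxia and normoxia libraries from their group means correlated at every level (r = 0.265 to 0.838 over 314 miRNAs), so the numbers were taken to pair them. A difference between all first-replicate and all second-replicate libraries would give such correlations too, so they do not show pairing within a level. First-replicate PC-3 libraries loaded at 0.045 to 0.456 on the first principal component, and second-replicate ones at -0.337 to 0.049. In 22Rv1 r was 0.0765 at 0.5% O2 and 0.345 to 0.621 at 5, 2, 1 and 0% O2 (356 miRNAs). Pairing was not assumed there, although r at 5, 2, 1 and 0% O2 was above the lowest PC-3 value. Pairs of 22Rv1 are only libraries of the same number, and its replicate block is an alternative. Libraries stood apart where their absolute loading on the first principal component of their line was over 0.35, a rule set after the data were seen. The members, all paralogue, let-7 and marker lists, and the rule for named miRNAs were chosen with earlier results of these data known. The rule named the 6 members, miR-210, the paralogues and, for each 5p member, the 3 miRNAs with the steadiest ratio. Prostate luminal markers (miR-375 and miR-148a-3p) summed to 681 to 1364 CPM in hypoxic PC-3 and 623 to 1169 CPM in normoxic PC-3, against 34320 to 93608 CPM in hypoxic 22Rv1 and 50011 to 86952 CPM in normoxic 22Rv1. The 4 blood markers present summed to 222 to 355 CPM in hypoxic PC-3 and 290 to 399 CPM in normoxic PC-3, against 803 to 2646 CPM in hypoxic 22Rv1 and 1253 to 2426 CPM in normoxic 22Rv1. Only 1 blood marker reached a mean of 5 CPM in each line and condition. The 3 neuronal markers summed to 300 to 525 CPM in hypoxic PC-3 and 309 to 595 CPM in normoxic PC-3, against 358 to 651 CPM in hypoxic 22Rv1 and 423 to 620 CPM in normoxic 22Rv1. In both conditions 1 neuronal marker reached a mean of 5 CPM in PC-3 and 2 did in 22Rv1. The part of these markers in the results was not tested.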

Additional observations from a re-analysis of the deposited data

How the results depend on the processing

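The rise of miR-125a-3p and of its arm ratio in PC-3, and the higher level of 5 of the 6 arms in PC-3 than in 22Rv1, kept their direction and call in every alternative run. For the line difference of miR-125a-3p the exception was scaling by library totals. Of 1716 values of single members or hairpins under an alternative, 1673 kept direction and side of the threshold, and none of the 32 that changed sign was of a called value. Precision is limited by depth, with 5 to 388 reads of a 3p arm a library, and by the 2 libraries a group.

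With the replicate block, which rests on pairing by number, the PC-3 mean effect gave 3 members and 109 miRNAs called and 2 member and level pairs, and the 22Rv1 mean effect gave 1 member (miR-99b-3p, adjusted p = 0.0251), 164 miRNAs and 24 hairpins, and 1 member and level pair (miR-99b-5p at 0.5% O2, where 19.4% of all miRNAs were called). The line difference gave 61 miRNAs and 6 hairpins with the block, and the miR-99b ratio in it became log2 0.020. It also called the miR-99b ratio in PC-3 at 2% O2 (adjusted p = 0.0286), and changed no other call of a member or hairpin. The fit for PC-3 against 22Rv1 in normoxia was not run with the block, because a pair lies within 1 line. With library totals alone 46 miRNAs were called in 22Rv1 and 7 for the line difference, and at 20 CPM or more 11 for the line difference and 62 hairpins for the normoxia ratio. A pseudocount of 5 gave 4 hairpins for the line difference and a let-7e ratio of log2 -0.0027 there.

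Without the libraries that stood apart, 22Rv1 gave 3 members, 150 miRNAs, 26 hairpins and 1 member and level pair (miR-99b-5p at 0.5% O2, where 4.99% of miRNAs were called), the line difference gave 6 hairpins, let-7e-5p in 22Rv1 became log2 0.027, and the normoxia ratio of miR-99b became log2 -0.037. Omitting single libraries gave 0 to 1 members called for the 22Rv1 mean effect, its trend, its levels, its control sets and the PC-3 levels. The one behind the trend and control set calls was the second normoxia library of the 5% level, and the member was miR-99b-5p, in fits that called 0.727% and 0.364% of miRNAs. Omissions gave 5 to 16 hairpins for the 22Rv1 mean effect, 9 to 37 miRNAs and 1 to 4 hairpins for the line difference. They gave log2 -0.083 to 0.020 for let-7e-5p, -0.045 to 0.27 for the miR-99b ratio and -0.020 to 0.16 for the miR-125a ratio in 22Rv1. For the line difference of the ratios they gave -0.19 to 0.12 for miR-99b and -0.14 to 0.17 for let-7e, and for the normoxia ratio of miR-99b -0.079 to 0.23. Beside let-7a-5p and let-7c-5p alone, let-7e-5p was a median of 4.81% in PC-3 and 2.83% in 22Rv1. With a floor of 20 CPM the third miRNA most like miR-125a-5p in 22Rv1 was miR-3158-3p (SD 0.163), after miR-484 and miR-652-3p. The cause of these changes was not tested. No member differed among the normoxia control sets by edgeR in the fit with all libraries, nor did any miRNA, with 13 in PC-3 and 3 in 22Rv1 at an unadjusted p below 0.05.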
